A study of Mus musculus with 20 samples.

Results

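The 10 genes described here belong to enzyme families that desaturate, elongate or place fatty acyl chains, and not all of them act on polyunsaturated chains. The fatty acid desaturase family members are Fads1, Fads2, Fads3 and Fads6, and the elongases are Elovl1, Elovl2, Elovl3 and Elovl5. The others are the delta-9 desaturase Scd2 and the lysophospholipid acyltransferase Lpcat3. All 10 genes were taken by gene symbol from a count table of 56748 mouse genes. All were among the 15669 genes with enough reads to be tested. RNA came from whole liver of mice fasted for 24 h, with 4 libraries in each of 5 genotypes. Control mice carried floxed alleles of Cpt1a, Cpt1b and Cpt2. The mutants lacked, in the liver, Cpt1a and Cpt1b (Cpt1DKO), Cpt2 (Cpt2KO), all 3 of these genes (TKO), or Cpt2 together with Ppara (Cpt2PparaDKO). CPT1 and CPT2 are the carnitine acyltransferases by which mitochondria import long acyl chains to oxidise them. PPARα is the nuclear receptor through which fatty acids induce their own oxidation in the fasted liver. The driver of the liver-specific deletion was not given in the sources used here. The labels do not tie libraries to animals, so p-values measure the spread between these libraries, which may be technical.

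Total counts ran from 14129595 to 20273303 in 19 libraries and reached 36452673 in Cpt2PparaDKO replicate 1. Normalised read counts are given as CPM, reads scaled to the depth of the library. Of the targeted genes, Cpt1a, Cpt2 and Ppara followed the labels, and values of Cpt1b are not given here. Control had 1038 ± 76.6 CPM of Cpt1a (SD, n = 4) where Cpt1DKO had 155 ± 12.2 and TKO 137 ± 12.7. Cpt2 had group means of 131 CPM in Cpt2KO, 103 in TKO and 33.9 in Cpt2PparaDKO against 249 in Control. Ppara was at 73.2 ± 12.98 CPM in Cpt2PparaDKO against 233 ± 46.1 in Control. In Cpt2PparaDKO against Cpt2KO, Cpt2 itself had a log2 difference of -1.95. No group lacked Ppara alone, so in this contrast the loss of Ppara and the lower Cpt2 cannot be told apart. Of the 20 libraries, 2 had a female pattern, with Xist above 100 CPM and at most 1 count for each of 4 Y-linked genes: Cpt2KO replicate 3 and Cpt2PparaDKO replicate 4. The other 18 had a male pattern, so each of these 2 groups held libraries of more than 1 animal. All 8 hepatocyte markers were detected in every group. Their summed level ran from 87750 to 109100 CPM in Control, 87340 to 97050 in Cpt1DKO, 51140 to 81550 in Cpt2KO, 42380 to 78700 in TKO and 39560 to 44720 in Cpt2PparaDKO. It lay below every Control library in all libraries of the 3 groups without Cpt2, which are also the groups of most calls on Elovl5, Lpcat3, Fads6 and Fads2, and its part in those calls was not tested. Alb, 1 of the 8, averaged 38730 CPM over the 20 libraries and so weighs heavily in the sum. By the test described with Elovl5, 3 of the 8 were lower than Control in Cpt2KO, 2 in TKO and 7 in Cpt2PparaDKO. Of all tested genes 17.2%, 14.4% and 17.6% were lower in these comparisons. The 8 macrophage markers had medians of 243 CPM in Control and 377 in Cpt2PparaDKO. In whole tissue, fewer cells of a type, less RNA per cell and lower expression of single markers cannot be told apart by such sums.

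Mammals obtain linoleate and alpha-linolenate from the diet and convert them in the endoplasmic reticulum of liver cells by alternating steps of desaturation and elongation. FADS2 inserts the entry double bond, ELOVL5 adds carbons, FADS1 inserts the next double bond to give arachidonate or eicosapentaenoate, and ELOVL2 lengthens the products to precursors that peroxisomes shorten to docosahexaenoate. LPCAT3 then esterifies arachidonate and other polyunsaturated chains into phospholipids. The sterol-regulated factor SREBP-1c, encoded by Srebf1, and PPARα are both known to act on Fads1 and Fads2.

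Elovl2, Fads2 and Elovl5 stood highest when read counts were corrected for gene length. In Control, the deposited FPKM (a read count divided by gene length and library depth) was 208 ± 16.8 for Elovl2, 199 ± 38.8 for Fads2, 128 ± 20.02 for Elovl5 and 61.1 ± 10.5 for Fads1 (SD, n = 4). Elovl2 and Fads2 overlapped between libraries, and the libraries of Elovl5 and of Fads1 lay apart from both and from each other. Elovl3, a liver elongase of saturated and monounsaturated chains, Fads6, a family member whose substrate is not settled, and Lpcat3 followed at 39.7 ± 8.89, 36.2 ± 1.66 and 31.0 ± 2.07 FPKM. Elovl3 overlapped with both of the others, and Fads6 and Lpcat3 did not overlap with each other. Elovl1, which makes very long saturated chains, and Fads3, which desaturates sphingoid bases, were at 9.90 ± 1.35 and 8.23 ± 3.62 FPKM with overlapping libraries, and Scd2 was lowest at 0.828 ± 0.293 FPKM. In Cpt2KO, Fads2, Elovl5 and Elovl2 had FPKM of 273 ± 34.9, 262 ± 36.4 and 236 ± 28.1, and each overlapped with its neighbour in that order. In Cpt2PparaDKO, Elovl2 stood at 214 ± 82.7 FPKM and Fads2 and Elovl5 at 104 ± 38.7 and 100 ± 39.1.

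**Figure D1:**
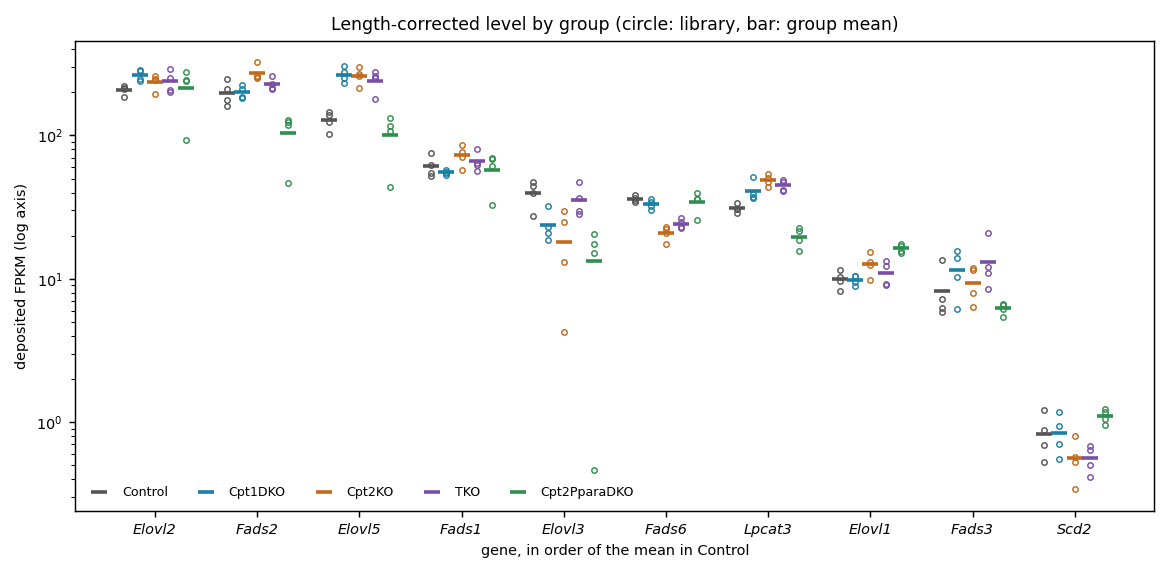
Deposited FPKM on a log axis for the 10 genes, ordered by their mean in Control, with 1 circle per library and a bar at the mean of each genotype. Elovl2, Fads2 and Elovl5 lie highest, Scd2 has the lowest mean in every group, and Elovl5 is above its Control libraries in Cpt1DKO, Cpt2KO and TKO.

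The 5 genes on chromosome 19 include the Fads cluster. In the deposited annotation (GRCm39), Fads3 occupied chr19:10018933-10037474 on the plus strand, Fads2 chr19:10040129-10079110 on the minus strand and Fads1 chr19:10160252-10174241 on the plus strand, with 2.65 kb between Fads3 and Fads2 and 81.1 kb between Fads2 and Fads1. Scd2 lay at chr19:44282113-44295303 and Elovl3 at chr19:46120336-46124133. Elovl5 lay at chr9:77824646-77891801, Elovl2 at chr13:41335857-41373881, Elovl1 at chr4:118285290-118290150, Fads6 at chr11:115170448-115188489 and Lpcat3 at chr6:124639990-124681381. Of the cluster, Fads2 passed the test described with Elovl5 in 2 comparisons, and Fads3 and Fads1 passed it in none. In Cpt2PparaDKO against Cpt2KO the log2 differences had the same sign, at -0.60 for Fads3, -1.38 for Fads2 and -0.32 for Fads1, and whether they differ from each other was not tested.

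The sequences in front of Elovl5, Lpcat3, Fads2 and Fads6 are shown because these 4 genes passed the test in 2 or more comparisons. They are the 250 bases before the start of transcription in the RefSeq promoter table for GRCm38.p6, an older build than that of the counts, written 5′ to 3′ on the strand of the gene. The table held windows for 7 of the 10 genes, and not for Fads1, Elovl3 and Scd2. Capitals mark every match, on either strand, to one of 6 motifs: the sterol regulatory element TCACNCCAC with at most 1 mismatch in its 8 fixed letters, the box CCAAT, the GC box GGGCGG, the nuclear receptor site AGGTCA, and 2 copies of AGGTCA spaced by 1 base or by 4 bases with at most 2 mismatches in 12, which can overlap with the single site.
Elovl5, chr9:77917115-77917364, plus strand: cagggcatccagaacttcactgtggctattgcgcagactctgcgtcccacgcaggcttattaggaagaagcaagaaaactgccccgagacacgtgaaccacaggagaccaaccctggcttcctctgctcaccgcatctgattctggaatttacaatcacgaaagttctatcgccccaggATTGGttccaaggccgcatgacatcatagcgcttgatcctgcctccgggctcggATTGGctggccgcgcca
Lpcat3, chr6:124662854-124663103, plus strand: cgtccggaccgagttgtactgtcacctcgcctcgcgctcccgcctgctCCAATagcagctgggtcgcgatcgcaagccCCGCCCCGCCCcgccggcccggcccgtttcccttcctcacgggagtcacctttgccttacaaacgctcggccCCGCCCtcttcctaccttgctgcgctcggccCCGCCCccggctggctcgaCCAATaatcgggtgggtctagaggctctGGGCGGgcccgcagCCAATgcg
Fads2, chr19:10101504-10101753, minus strand: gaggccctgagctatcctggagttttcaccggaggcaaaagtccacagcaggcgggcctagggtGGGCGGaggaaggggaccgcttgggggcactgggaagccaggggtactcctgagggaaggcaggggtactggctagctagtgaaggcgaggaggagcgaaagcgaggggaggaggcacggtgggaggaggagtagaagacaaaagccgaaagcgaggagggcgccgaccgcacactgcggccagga
Fads6, chr11:115297563-115297812, minus strand: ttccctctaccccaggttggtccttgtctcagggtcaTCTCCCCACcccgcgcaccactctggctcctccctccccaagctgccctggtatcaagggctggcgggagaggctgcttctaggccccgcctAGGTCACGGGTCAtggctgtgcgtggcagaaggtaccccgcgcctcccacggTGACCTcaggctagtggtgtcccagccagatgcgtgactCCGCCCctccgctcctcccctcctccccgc

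The capitals in Elovl5 are 2 copies of CCAAT on the opposite strand, and those in Lpcat3 are copies of CCAAT on the strand of the gene and of GGGCGG on both strands. Fads2 holds 1 copy of GGGCGG. Fads6 holds a match to the sterol regulatory element with 1 mismatch that begins 213 bases before the start, a pair of AGGTCA sites spaced by 1 base with 1 mismatch that begins 121 bases before it, a further AGGTCA and a GGGCGG on the opposite strand. Elovl5 also holds a sterol element match with 1 mismatch that begins 14 bases after the start, beyond the stretch shown. Counted over whole windows of 300 bases, 2 of the 9 windows of these genes and 24.2% of the 32851 windows in the table held the sterol element. Pairs spaced by 1 base were in 2 of the 9 and 3.86% of all, pairs spaced by 4 bases in 0 of the 9 and 3.02% of all, the single AGGTCA in 2 of the 9 and 16.3% of all, CCAAT in 4 of the 9 and 37.4% of all, and GGGCGG in 7 of the 9 and 35.7% of all. These matches describe the letters of the windows and say nothing of binding.

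Elovl5, the elongase that follows the entry desaturation, was higher in all 3 mutants that lack only shuttle enzymes. In Control its 4 libraries had 502, 528, 364 and 442 CPM. In Cpt1DKO they had 1073, 884, 836 and 995 CPM, in Cpt2KO 922, 757, 1077 and 953 CPM, and in TKO 638, 976, 899 and 929 CPM. Every library of these mutants lay above every Control library. The rise came to 1.04 on the log2 scale in Cpt1DKO (SE 0.24, adjusted p = 0.0122), 1.01 in Cpt2KO (SE 0.24, adjusted p = 0.00212) and 0.91 in TKO (SE 0.23, adjusted p = 0.00626), by edgeR's quasi-likelihood test with Benjamini-Hochberg adjustment over all 15669 genes, which gives every adjusted p here unless another tool is named. These comparisons share the 4 Control libraries. Without Cpt1DKO replicate 1 the adjusted p of the Cpt1DKO comparison was 0.0517. Elovl5 did not pass the test between any pair of these mutants, with log2 differences of -0.03 for Cpt2KO against Cpt1DKO (95% interval -0.51 to 0.45), -0.11 for TKO against Cpt2KO (-0.59 to 0.38) and -0.14 for TKO against Cpt1DKO (-0.62 to 0.35).

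In livers that lacked Ppara as well as Cpt2, Elovl5 was low. The 4 libraries of Cpt2PparaDKO had 381, 414, 471 and 156 CPM, all below every Cpt2KO library and overlapping with Control. Elovl5 fell by 1.38 on the log2 scale against Cpt2KO (SE 0.24, adjusted p = 1.97e-04), and its difference from Control was -0.37 (SE 0.23, adjusted p = 0.237). The lowest value belonged to the female-pattern library, Cpt2PparaDKO replicate 4. That library was also low in Cpt1a, at 468 CPM beside 920 to 1011 CPM in the rest of its group. In Ephx2 it had 151 CPM beside 430 to 482 CPM, while its Elovl1, at 48.6 CPM, was the highest of its group. The other female-pattern library, Cpt2KO replicate 3, had the highest Elovl5 of its group at 1077 CPM. The part of sex in these values was not tested. Without both female-pattern libraries the fall against Cpt2KO was 1.04 (adjusted p = 1.79e-04) and the difference from Control was -0.095 (adjusted p = 0.699).

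**Figure D2:**
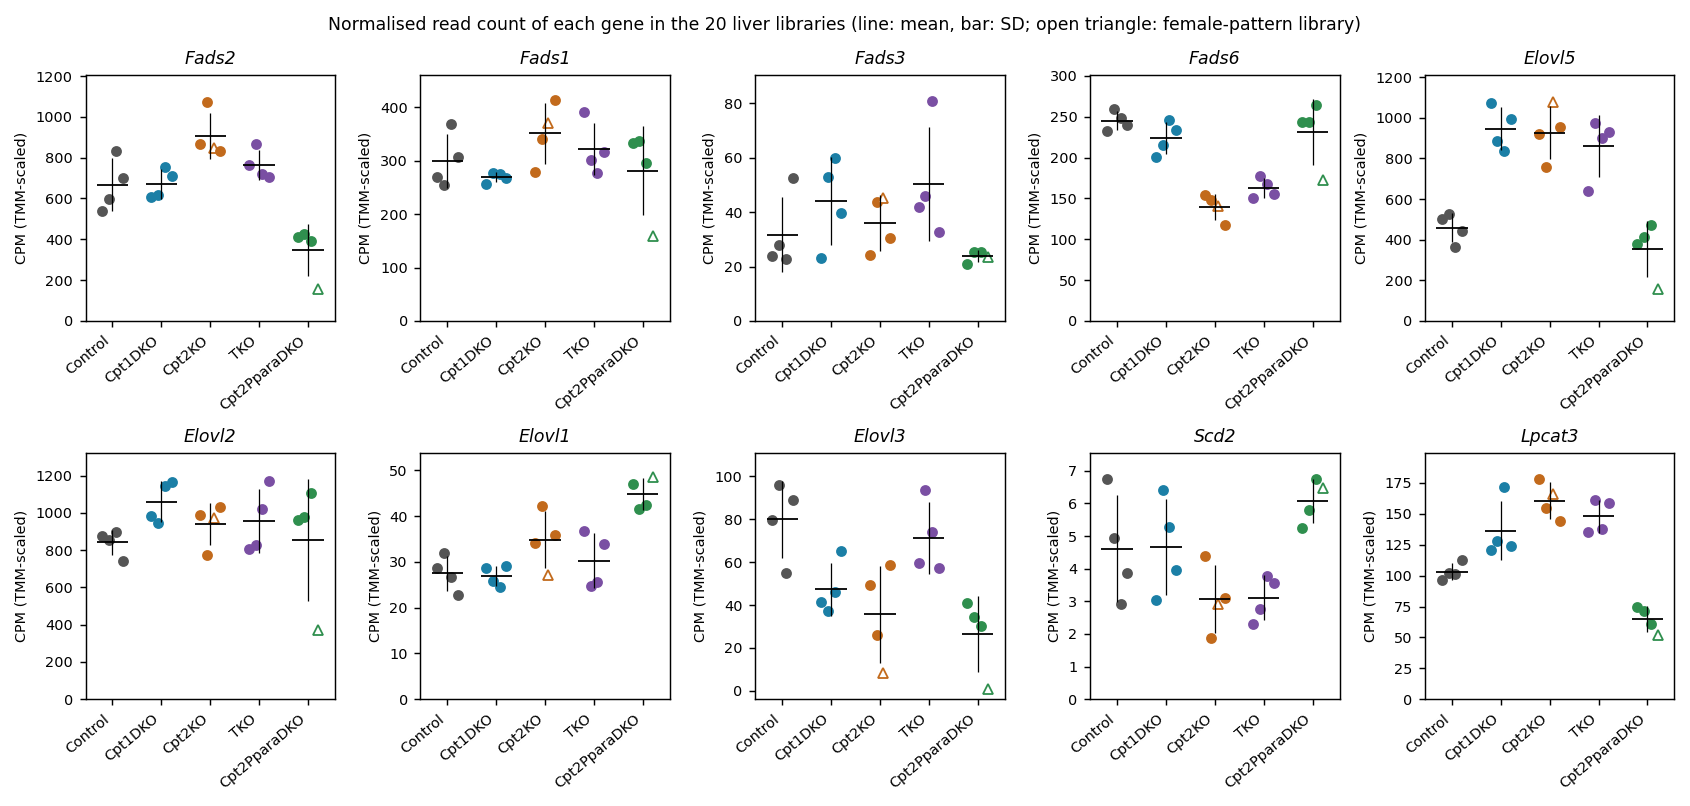
Normalised read count (CPM, linear axis) of each of the 10 genes in the 20 libraries, by genotype, with a line at the mean, a vertical bar of 1 SD each way, and open triangles for the 2 female-pattern libraries. Elovl5 lies at 638 to 1077 CPM in the 12 libraries of Cpt1DKO, Cpt2KO and TKO and at 156 to 528 CPM in the other 8, and the triangles lie lowest in their group for Elovl3.

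Lpcat3, which remodels phospholipids with polyunsaturated chains, was higher in Cpt2KO and TKO and lower in Cpt2PparaDKO. Control libraries had 96.7, 102, 102 and 112 CPM and Cpt2PparaDKO libraries 74.7, 71.5, 60.9 and 51.8 CPM. Libraries of Cpt2KO had 178, 155, 166 and 144 CPM, and those of TKO had 135, 161, 138 and 158 CPM. The groups lay in 3 tiers with no overlap, Cpt2PparaDKO below Control and Control below both Cpt2KO and TKO. Lpcat3 rose by 0.64 on the log2 scale in Cpt2KO (SE 0.13, adjusted p = 7.44e-04) and by 0.52 in TKO (SE 0.13, adjusted p = 0.00507) and fell by 0.67 in Cpt2PparaDKO (SE 0.13, adjusted p = 5.61e-04), each against Control. Against Cpt2KO, it fell by 1.31 in Cpt2PparaDKO (SE 0.13, adjusted p = 2.60e-07), the lowest adjusted p of any of the 10 genes in the 9 comparisons. In Cpt1DKO the libraries had 121, 128, 172 and 124 CPM, all above Control, and the log2 difference of 0.40 did not pass the test (SE 0.13, adjusted p = 0.0757). It passed with DESeq2, in a fit of the compared groups alone and without the female-pattern libraries, with adjusted p from 0.0319 to 0.205 over 16 alternatives.

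Fads2, the entry desaturase, was lower where Ppara was lost along with Cpt2. Cpt2PparaDKO libraries had 411, 428, 393 and 155 CPM, against 539, 599, 832 and 701 CPM in Control and 867, 1072, 846 and 835 CPM in Cpt2KO. No library of Cpt2PparaDKO reached the lowest of the other groups. Fads2 fell by 0.94 on the log2 scale against Control (SE 0.22, adjusted p = 0.00257) and by 1.38 against Cpt2KO (SE 0.22, adjusted p = 1.05e-04). Without the female-pattern libraries these falls were 0.68 (adjusted p = 0.00213) and 1.16 (adjusted p = 2.35e-05). In Cpt2KO every library lay above every Control library, and the log2 difference of 0.44 did not pass the test (SE 0.22, adjusted p = 0.134). It passed without the female-pattern libraries, with sex pattern as a term and in a fit of the 2 groups alone (adjusted p from 0.0145 to 0.303 over 16 alternatives). Cpt1DKO libraries had 606, 616, 753 and 711 CPM and TKO libraries 766, 867, 722 and 705 CPM, both overlapping with Control, with log2 differences of 0.01 (95% interval -0.45 to 0.46) and 0.20 (-0.26 to 0.65).

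Fads1, which inserts the double bond after the elongation by ELOVL5, passed the test in none of the 9 comparisons. Its group means ran from 269 ± 8.89 CPM in Cpt1DKO to 351 ± 57.2 CPM in Cpt2KO (SD, n = 4), with 300 ± 50.5 in Control (254.8 to 367.9), 322 ± 48.6 in TKO and 281 ± 83.2 in Cpt2PparaDKO. The 95% interval of the log2 difference from Control was -0.16 to 0.62 in Cpt2KO and -0.48 to 0.30 in Cpt2PparaDKO. In Cpt2PparaDKO, 3 libraries lay at 295 to 337 CPM and the female-pattern library at 160 CPM. Across the same contrast, Cpt2PparaDKO against Cpt2KO, Fads2 fell by 1.38 and Fads1 had a log2 difference of -0.32 (SE 0.19, adjusted p = 0.226).

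Elovl2, which makes the longest polyunsaturated precursors, also passed the test in no comparison. The Control mean was 842 ± 68.7 CPM, beside 1059 ± 110 for Cpt1DKO, 942 ± 114 for Cpt2KO, 957 ± 171 for TKO and 854 ± 329 for Cpt2PparaDKO (SD, n = 4). All Cpt1DKO libraries, at 946 to 1164 CPM, lay above the highest Control library at 898 CPM, and the log2 difference was 0.33 (95% interval -0.14 to 0.80, adjusted p = 0.423). The spread in Cpt2PparaDKO came from the female-pattern library at 370 CPM, beside 960, 980 and 1107 CPM in the others. The female-pattern library of Cpt2KO had 970 CPM, within its group range of 775 to 1033 CPM.

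Fads6 moved opposite to Elovl5 and Lpcat3 in Cpt2KO and TKO against Control. Control libraries had 233, 259, 248 and 239 CPM, Cpt2KO libraries 154, 148, 140 and 118 CPM, and TKO libraries 151, 178, 168 and 155 CPM. Every library of both mutants lay below every Control library and also below every Cpt1DKO library, which had 201, 215, 246 and 234 CPM. Fads6 fell by 0.81 on the log2 scale in Cpt2KO (SE 0.13, adjusted p = 5.56e-05) and by 0.59 in TKO (SE 0.13, adjusted p = 0.00148) against Control, and by 0.68 in Cpt2KO against Cpt1DKO (SE 0.13, adjusted p = 0.00140). The fall of 0.46 in TKO against Cpt1DKO (SE 0.13, adjusted p = 0.0397) passed the test in 9 of 16 alternatives, with adjusted p from 0.00834 to 0.126. It did not pass without Cpt1DKO replicate 1, 3 or 4, without TKO replicate 1, 3 or 4, or with no filter on low counts. In Cpt1DKO the difference from Control was -0.13 (95% interval -0.39 to 0.13).

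With Ppara also deleted, Fads6 overlapped with Control. Cpt2PparaDKO libraries had 243, 244, 265 and 172 CPM, the lowest being the female-pattern library. They lay above every Cpt2KO library, and Fads6 was higher by 0.72 on the log2 scale than in Cpt2KO (SE 0.13, adjusted p = 2.44e-04). Its difference from Control was -0.08 (95% interval -0.35 to 0.18).

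**Figure D3:**
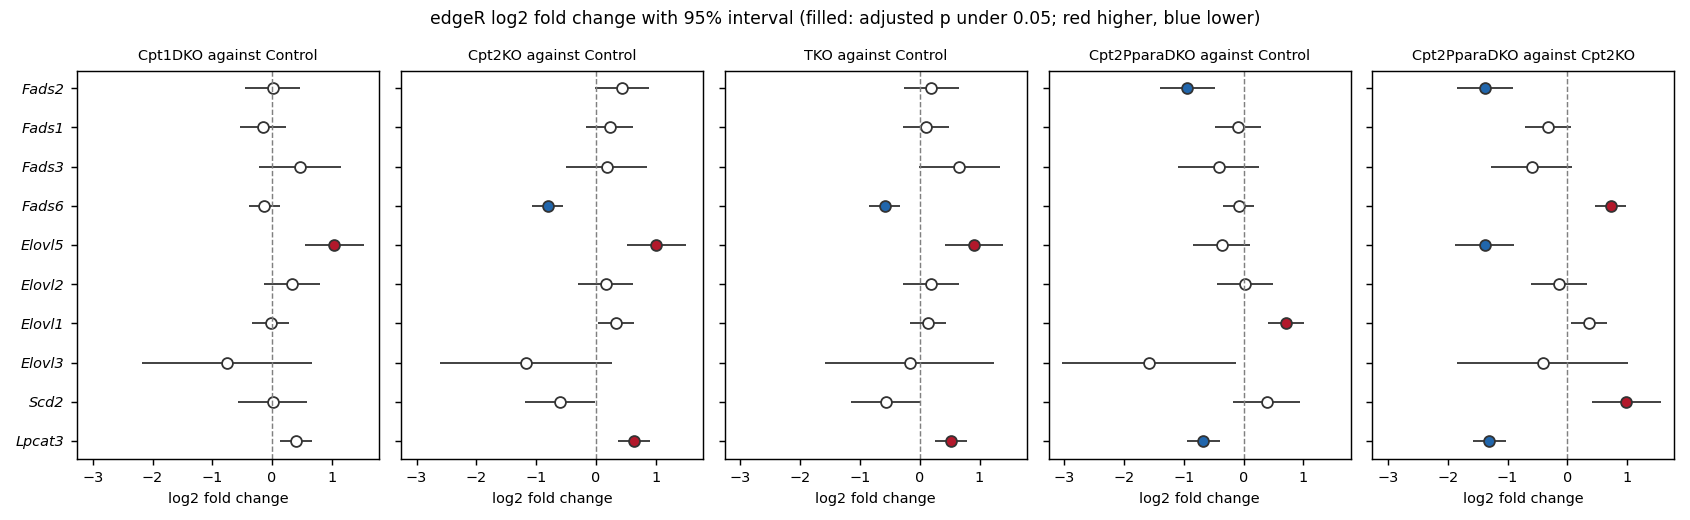
log2 fold change of the 10 genes with its 95% interval in 5 comparisons, where filled points have an adjusted p under 0.05 (red higher, blue lower). Elovl5 is filled and higher in Cpt1DKO, Cpt2KO and TKO against Control, Fads6 is lower in Cpt2KO and TKO, and Fads2, Elovl5 and Lpcat3 are lower in Cpt2PparaDKO against Cpt2KO.

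Elovl1 was higher in Cpt2PparaDKO than in Control. Its Cpt2PparaDKO libraries had 47.0, 41.5, 42.5 and 48.6 CPM, above all 4 Control libraries at 28.6, 31.9, 26.6 and 22.8 CPM. The rise was 0.71 on the log2 scale (SE 0.14, adjusted p = 8.35e-04). Against Cpt2KO the libraries overlapped, and the log2 difference of 0.37 did not pass the test (SE 0.14, adjusted p = 0.0678). It passed in 1 of 16 alternatives, without Cpt2KO replicate 2 (adjusted p from 0.0310 to 0.252). Means were 27.0 ± 2.18 CPM in Cpt1DKO, 34.8 ± 6.21 in Cpt2KO and 30.3 ± 6.03 in TKO, and Elovl1 passed the test in none of these against Control. The difference of 0.34 in Cpt2KO (adjusted p = 0.0758) passed without the female-pattern libraries, without Cpt2KO replicate 3, which is one of them, and without Control replicate 2 (adjusted p from 0.0146 to 0.258 over 16 alternatives).

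Scd2, an isoform of stearoyl-CoA desaturase known mainly from brain, was the lowest of the 10 genes per length and differed between Cpt2PparaDKO and Cpt2KO. Its libraries had 6.75, 4.93, 2.91 and 3.86 CPM in Control, 4.39, 1.87, 2.93 and 3.11 CPM in Cpt2KO and 5.25, 5.80, 6.73 and 6.48 CPM in Cpt2PparaDKO. The last group lay above every Cpt2KO library and overlapped with Control. Scd2 was higher by 0.98 on the log2 scale in Cpt2PparaDKO than in Cpt2KO (SE 0.28, adjusted p = 0.0126), and without Cpt2KO replicate 2 the adjusted p was 0.0539. Marker sums of some cells other than hepatocytes had their highest medians in Cpt2PparaDKO, where Elovl1 and Scd2 were also highest. The 8 macrophage markers summed to 349 to 401 CPM in Cpt2PparaDKO, 164 to 372 in Cpt2KO and 174 to 352 in Control, and 5 markers of lipid-associated macrophages to 94.7 to 108, 47.1 to 84.5 and 11.6 to 14.5 CPM. Stellate cell and fibroblast markers summed to 309 to 325 CPM in Cpt2PparaDKO, 273 to 369 in Cpt2KO and 204 to 241 in Control. In Cpt2KO the last 2 sums also lay above every Control library, where 2 of 5 and 1 of 8 of their markers passed the test as higher. In Cpt2PparaDKO against Control 5 of 5 and 5 of 8 of them passed as higher, and 1 of the 8 macrophage markers. Of all tested genes 16.2% in Cpt2KO and 14.9% in Cpt2PparaDKO were higher than in Control. The sum of 8 endothelial markers had its highest median in Cpt1DKO, at 480 CPM beside 393 in Cpt2PparaDKO. Neither Elovl1 nor Scd2 passed the test in Cpt2KO against Control. Their log2 differences were 0.34 for Elovl1 (adjusted p = 0.0758) and -0.60 for Scd2 (adjusted p = 0.111). The mean of Scd2 was 3.07 CPM in Cpt2KO against 4.61 in Control. No marker of the macrophage, lipid-associated macrophage and stellate cell lists was at 0 in any group. The part of these cells in the levels of Elovl1 and Scd2 was not tested.

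In Cpt2KO and Cpt2PparaDKO, Elovl3 had the widest relative spread of the 10 genes, and its lowest values were those of the female-pattern libraries. Control libraries had 79.9, 96.1, 54.9 and 89.0 CPM, Cpt2KO libraries 49.4, 25.9, 8.47 and 58.8 CPM, and Cpt2PparaDKO libraries 40.9, 34.7, 30.2 and 0.931 CPM. The values of 8.47 and 0.931 CPM belonged to Cpt2KO replicate 3 and Cpt2PparaDKO replicate 4. Elovl3 passed the test in no comparison, with a log2 difference of -1.17 in Cpt2KO (SE 0.68, adjusted p = 0.208) and -1.58 in Cpt2PparaDKO (SE 0.68, adjusted p = 0.0888) against Control. Without the 2 female-pattern libraries both passed, with log2 differences of -0.83 in Cpt2KO (adjusted p = 0.0232) and -1.15 in Cpt2PparaDKO (adjusted p = 0.00446). With sex pattern as a term the Cpt2KO difference was -0.58 and did not pass (adjusted p = 0.286), and the Cpt2PparaDKO difference was -1.40 and passed (adjusted p = 0.00832). Cpt1DKO libraries had 41.4, 37.1, 46.1 and 65.2 CPM and TKO libraries 59.7, 93.6, 74.0 and 57.1 CPM, with log2 differences from Control of -0.75 (SE 0.67, adjusted p = 0.564) and -0.17 (SE 0.67, adjusted p = 0.883).

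Fads3 spread widely within groups and passed the test in no comparison. Control libraries had 22.7 to 52.4 CPM, Cpt1DKO libraries 23.3 to 59.9, Cpt2KO libraries 24.3 to 45.3, TKO libraries 32.9 to 80.7 and Cpt2PparaDKO libraries 20.8 to 25.4. All groups overlapped with Control. The largest log2 difference from Control was 0.66 in TKO (SE 0.32, adjusted p = 0.141), and it passed without Control replicate 4 (adjusted p = 0.0225).

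The calls on the 10 genes were set beside the share of all tested genes that passed the same threshold. In Cpt1DKO against Control, 1 rose and 0 fell, where 5.55% of all tested genes passed. In Cpt2KO against Control 2 rose and 1 fell (33.4% of all genes), in TKO against Control 2 rose and 1 fell (27.4%), and in Cpt2PparaDKO against Control 1 rose and 2 fell (32.5%). The share of 3 in 10 in each of these lay near that of all genes. In Cpt2PparaDKO against Cpt2KO, 2 rose and 3 fell, where 24.4% of all genes passed, and the median absolute log2 difference was 0.66 over the 10 genes and 0.33 over all tested genes.

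Between the shuttle mutants 0 or 1 of the 10 genes passed, counts near those that the share of all genes gives. In Cpt2KO against Cpt1DKO 1 fell, Fads6, where 14.1% of all genes passed, and in TKO against Cpt1DKO 1 fell, again Fads6, where 4.65% passed. In TKO against Cpt2KO 0 of 10 passed with edgeR, where 0.0511% of all genes passed, and 0 of 10 had an unadjusted p under 0.05 or passed with DESeq2. Control, Cpt1DKO, Cpt2KO and TKO form a factorial set, and the interaction asks whether the effect of losing Cpt1 and Cpt2 together departs from the sum of the separate effects on the log2 scale. With edgeR 0 of the 10 genes passed for it, where 2.7% of all genes passed, 2 had an unadjusted p under 0.05, and 1 passed with DESeq2. Elovl5 had an interaction of -1.15 (SE 0.33, adjusted p = 0.0606), with the difference of 0.91 in TKO beside 1.04 in Cpt1DKO and 1.01 in Cpt2KO. The adjusted p lay between 0.00737 and 0.127 over 24 alternatives, 4 of which passed. Lpcat3 had an interaction of -0.52 (SE 0.18, adjusted p = 0.132).

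In the authors' deposited tables of the same 8 pairwise comparisons, every call above was present in the same direction at an adjusted p under 0.05. The authors' deposited tables held 6 further calls: Elovl2 and Lpcat3 higher and Elovl3 lower in Cpt1DKO against Control (adjusted p of 0.0182, 0.0200 and 0.00687), Fads2 higher in Cpt2KO against Control and against Cpt1DKO (0.0289 and 0.0240), and Fads3 lower in Cpt2PparaDKO against Cpt2KO (0.0411).

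For each gene, the 3 protein-coding genes with the most similar pattern over the 20 libraries were found by Pearson's r of log2 CPM among 9373 candidates, as a description in which group differences, shared depth and the female-pattern libraries all enter. The genes close to Lpcat3 included Oplah (r = 0.967) and Crat, a carnitine acetyltransferase (0.964). Fads2 lay closest to Mgst1 (0.951), Ephx2, the soluble epoxide hydrolase that acts on epoxides of polyunsaturated fatty acids (0.945), and Cisd1 (0.944). Elovl3 lay closest to Mup7 (0.961), Cyp2d9 (0.953) and Mup3 (0.922), of which the major urinary proteins and Cyp2d9 are known for higher expression in male than in female mouse liver. The genes close to Fads6 included Cth, an enzyme of cysteine synthesis (0.944), and Trf, a plasma iron carrier (0.940). Elovl5 lay closest to Asic5 (0.930), Tspan31 (0.920) and Tmem135 (0.914). The top genes of the others were Erlin1 for Elovl1 (0.926), Csad for Elovl2 (0.870), Tspan15 for Scd2 (0.868), Cideb for Fads1 (0.781) and Zfp612 for Fads3 (0.742).

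Other elongases and delta-9 desaturases did not share one pattern with the 10 genes. Elovl6, the elongase of palmitate, fell by 1.70 on the log2 scale in Cpt2KO (SE 0.19, adjusted p = 1.77e-06) and by 1.56 in TKO (SE 0.19, adjusted p = 7.17e-06) against Control and was higher by 1.27 in Cpt2PparaDKO than in Cpt2KO (SE 0.19, adjusted p = 4.67e-05). It had a difference of -0.51 in Cpt1DKO (adjusted p = 0.115) and -0.42 in Cpt2PparaDKO (adjusted p = 0.0850) against Control. Elovl7 was at 0.135 to 0.832 CPM in Control and at 27.7 to 39.9 CPM in Cpt2KO and 18.7 to 32.7 CPM in TKO, with log2 differences of 6.35 (SE 0.89, adjusted p = 5.31e-05) and 5.80 (SE 0.89, adjusted p = 1.75e-04). Its Cpt2PparaDKO libraries had 6.24, 5.39, 2.81 and 30.5 CPM, the last being the female-pattern library. All of them lay above Control, with a log2 difference of 4.77 (SE 0.89, adjusted p = 6.95e-04). Cpt1DKO libraries had 1.04 to 8.89 CPM, also above Control, and the log2 difference of 3.13 did not pass (SE 0.94, adjusted p = 0.0631). Scd1, the main stearoyl-CoA desaturase of hepatocytes, fell in Cpt2KO (-1.62, SE 0.54, adjusted p = 0.0292) and in Cpt2PparaDKO (-1.77, SE 0.54, adjusted p = 0.0196), and had differences of -0.63 in Cpt1DKO (adjusted p = 0.533) and -1.15 in TKO (adjusted p = 0.124), all against Control.

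**Figure D4:**
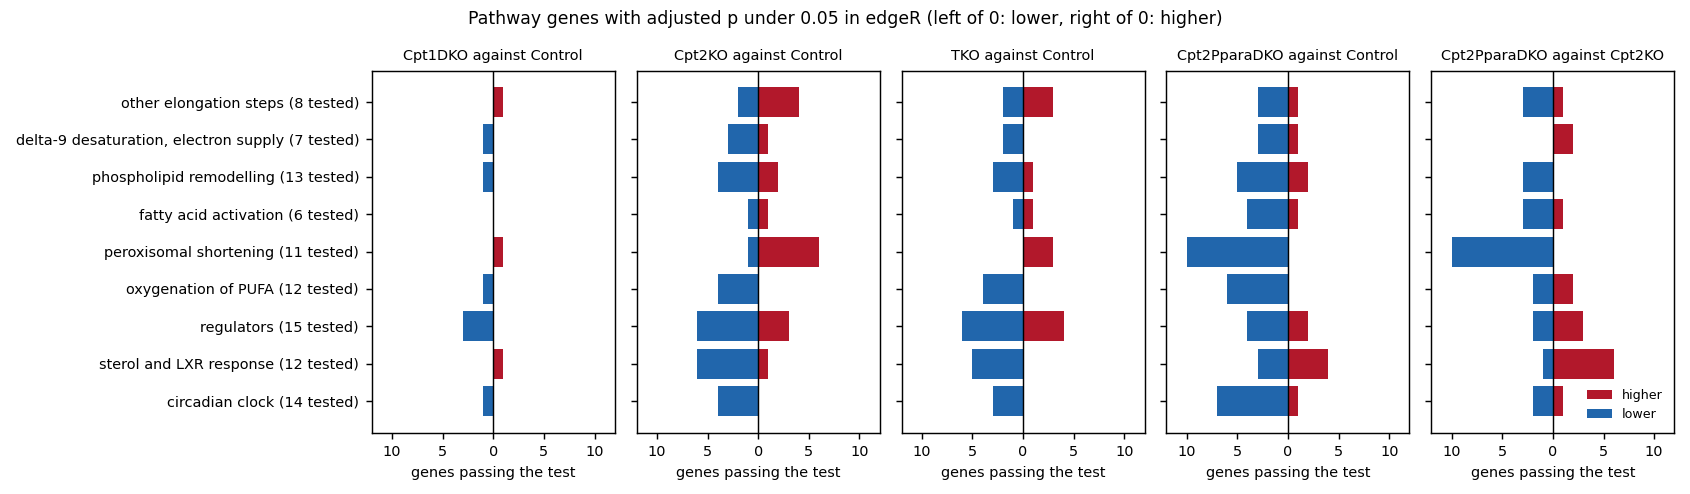
Number of genes of 9 pathway lists with an adjusted p under 0.05 in edgeR, lower to the left of 0 and higher to the right, in 5 comparisons. The longest bars are the 10 peroxisomal shortening genes that are lower in Cpt2PparaDKO against Control and against Cpt2KO.

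The counts over pathway lists are to be read against all tested genes, of which 16.2% were called higher and 17.2% lower in Cpt2KO against Control, 14.9% and 17.6% in Cpt2PparaDKO against Control, and 12.1% and 12.2% in Cpt2PparaDKO against Cpt2KO. Among the remaining steps of elongation, 8 genes were tested, and 4 rose and 2 fell in Cpt2KO against Control, with a median log2 difference of 0.41 beside -0.01 for all tested genes. Hacd3, a dehydratase of the elongation cycle, rose by 0.53 in Cpt1DKO (adjusted p = 0.00750), 0.61 in Cpt2KO (adjusted p = 2.29e-04) and 0.59 in TKO (adjusted p = 4.55e-04) and fell by 0.93 in Cpt2PparaDKO (adjusted p = 4.00e-06), all against Control. In Cpt2PparaDKO against Cpt2KO, 1 rose and 3 fell, led by Hacd3 (-1.54, adjusted p = 2.24e-09) and the ketoreductase Hsd17b12 (-1.42, adjusted p = 3.90e-07). Of 7 tested genes of delta-9 desaturation and electron supply, Cyb5r3, the reductase of cytochrome b5, fell in all 4 mutants against Control, with log2 differences of -0.68, -0.82, -0.85 and -0.51 in the order Cpt1DKO, Cpt2KO, TKO and Cpt2PparaDKO.

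Peroxisomal shortening, the step that ends docosahexaenoate synthesis, had 11 tested genes. In Cpt2KO against Control 6 rose and 1 fell, with a median of 0.46, among them the thiolase Acaa1b (2.20, adjusted p = 8.93e-05) and the thioesterase Acot8 (0.72, adjusted p = 1.94e-04). In Cpt2PparaDKO 10 of 11 fell both against Control and against Cpt2KO, with medians of -1.51 and -2.23. Decr2, a reductase of polyunsaturated acyl-CoA, had log2 differences of -2.59 and -2.79 there (adjusted p = 5.87e-10 and 6.41e-11), and Hsd17b4, the multifunctional enzyme, of -1.92 and -2.39 (adjusted p = 5.68e-09 and 7.87e-11).

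Phospholipid remodelling apart from Lpcat3 had 13 tested genes, of which 2 rose and 4 fell in Cpt2KO and 2 rose and 5 fell in Cpt2PparaDKO against Control. Mboat7, which places arachidonate into phosphatidylinositol, fell by 0.51 in Cpt2KO (adjusted p = 0.00275) and by 0.39 in TKO (adjusted p = 0.0185), where Lpcat3 rose. Agpat3 fell by 0.63 in Cpt2PparaDKO against Control (adjusted p = 2.60e-04) and by 0.87 against Cpt2KO (adjusted p = 7.12e-06). Of 12 tested genes that oxygenate polyunsaturated fatty acids, 4 fell and 0 rose in Cpt2KO and 6 fell and 0 rose in Cpt2PparaDKO against Control, among them the hydroxylase Cyp4f14 in Cpt2KO (-2.29, adjusted p = 4.68e-06) and Ephx2 in Cpt2PparaDKO (-1.99, adjusted p = 4.75e-06). The 4 of 12 called in Cpt2KO lay near the 33.4% called over all genes. The list of fatty acid activation had 6 tested genes, of which 1 rose and 4 fell in Cpt2PparaDKO against Control, led by Acsl1 (-2.61, adjusted p = 8.32e-06) and the transporter Slc27a2 (-1.70, adjusted p = 8.36e-06).

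Srebf1, the gene of the sterol-regulated factor, was lower in every mutant than in Control. The Control mean was 78.2 ± 25.7 CPM (56.3 to 114), beside 26.4 ± 5.46 for Cpt1DKO, 32.8 ± 2.91 for Cpt2KO, 28.3 ± 5.57 for TKO and 24.2 ± 1.43 for Cpt2PparaDKO (SD, n = 4). In that order the log2 differences from Control were -1.57 (adjusted p = 4.99e-05), -1.25 (2.74e-05), -1.47 (9.84e-06) and -1.69 (1.50e-06), each with an SE of 0.18 to 0.19. In the same livers Elovl5 was higher in 3 of the 4 mutants, Fads2 was lower in Cpt2PparaDKO, and Fads1 passed the test in none. The part of Srebf1 in these levels was not tested. Of 15 tested regulators, 3 rose and 6 fell in Cpt2KO against Control, with Pparg, the lipogenic PPAR, higher by 1.44 (adjusted p = 4.52e-06), and higher by 2.09 in Cpt2PparaDKO (adjusted p = 7.23e-08). Of 12 sterol and LXR response genes 1 rose and 6 fell in Cpt2KO against Control, and 6 rose and 1 fell in Cpt2PparaDKO against Cpt2KO, led by Sqle (2.03, adjusted p = 0.00285), an enzyme of cholesterol synthesis. Of 14 clock genes 0 rose and 4 fell in Cpt2KO and 1 rose and 7 fell in Cpt2PparaDKO against Control, led by the output factor Hlf (-1.19, adjusted p = 0.00118, and -1.83, adjusted p = 3.49e-05). The 4 of 14 called in Cpt2KO lay near the 33.4% called over all genes. The part of time of day in the levels of the 10 genes was not tested.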

How the data were processed

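Read counts per gene, FPKM and tables of pairwise tests were deposited by the authors. Reads were aligned with HISAT2 to GRCm39 (mm39), per the submitters' processing notes; its version, the counting tool, the strand setting and the annotation were not stated there or elsewhere in the sources used. The deposited counts are whole numbers that the authors did not normalise, and the deposited FPKM divides them by gene length and by 1 constant per library, 0.854 to 1.30 times the total count. The log2 fold changes and p-values in the authors' deposited tables are quoted only where named.

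Counts were tested with edgeR 4.0.16 (R 4.3.3): genes were kept by filterByExpr with a minimum count of 10, scaled by TMM, and fitted by robust quasi-likelihood in 1 model of 5 groups and 20 libraries, with 9 contrasts, Benjamini-Hochberg adjustment over 15669 genes and a threshold of 0.05. CPM values are TMM-scaled. SE is the log2 fold change divided by the root of F. Alternatives were RLE scaling, DESeq2 1.42.0, no filter, only the compared groups, a replicate block, sex pattern as a term, no female-pattern libraries, non-robust dispersions and leaving out each library.

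The 10 genes, the pathway lists and the marker lists were chosen with earlier results of these data known. All 10 genes are named; of a pathway list, at most 3 genes per comparison, those with the lowest adjusted p among called genes of at least 1 CPM; Scd1, Elovl6 and Srebf1 always; and for likeness the 3 protein-coding genes of at least 5 CPM with the highest r. Some genes that these rules would name are not reported here.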

Additional observations from a re-analysis of the deposited data

Results flagged for a closer look

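In groups of 4 libraries, a value was singled out where its gap to the nearest other library, divided by the range of the group, exceeded Dixon's critical value for 4 values at the 95% level; chance gives this in about 1 of 20 groups, and it was found in 3 of 50 groups. Fads2 in Cpt2KO replicate 2 had 1072 CPM, above 835 to 867 CPM in the other 3 libraries. Fads2 in Cpt2PparaDKO replicate 4, a female-pattern library, had 155 CPM, below 393 to 428 CPM in the others. Lpcat3 in Cpt1DKO replicate 3 had 172 CPM, above 121 to 128 CPM in the others.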

How the results depend on the processing

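Of 90 results on single genes, 17 passed the test, and 14 of these kept their direction and their call in every alternative; the 3 exceptions were Elovl5 in Cpt1DKO against Control, Scd2 in Cpt2PparaDKO against Cpt2KO and Fads6 in TKO against Cpt1DKO. None of the 17 changed sign, and 19 of the 73 results that did not pass had the opposite sign in at least 1 alternative. Scd2 rested on 42 to 122 counts per library in Control, 35 to 65 in Cpt2KO and 130 to 223 in Cpt2PparaDKO.

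With DESeq2 the genes called were 1443 in Cpt1DKO against Control, 54 in TKO against Cpt2KO, 1266 in TKO against Cpt1DKO and 941 for the interaction, against 869, 8, 729 and 423 with edgeR, and 2 of the 10 genes were called in Cpt1DKO against Control and 1 for the interaction. In fits of only the compared groups they were 1442 in Cpt1DKO against Control, 1344 against 2212 in Cpt2KO against Cpt1DKO, 2495 against 3822 in Cpt2PparaDKO against Cpt2KO and 5 in TKO against Cpt2KO, with 2 of the 10 genes in Cpt1DKO against Control and 1 for the interaction. Without the female-pattern libraries they were 1581 in Cpt1DKO against Control, 16 in TKO against Cpt2KO, 1391 in TKO against Cpt1DKO and 973 for the interaction, and of the 10 genes 2 were called in Cpt1DKO against Control, 6 in Cpt2KO against Control, 3 in Cpt2KO against Cpt1DKO and 2 for the interaction. With sex pattern as a term 2 of the 10 were called in Cpt2KO against Cpt1DKO and 1 for the interaction. With no filter 0 of the 10 were called in TKO against Cpt1DKO. The cause of these changes was not tested.

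Leaving out 1 library at a time gave 288 to 1188 genes in Cpt1DKO against Control, 1192 to 2517 in Cpt2KO against Cpt1DKO, 3 to 10 in TKO against Cpt2KO, 278 to 898 in TKO against Cpt1DKO and 178 to 585 for the interaction; of the 10 genes it called 0 to 1, 1 to 2, 0, 0 to 1 and 0 in these comparisons.

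Libraries that share a replicate number did not deviate together: over 40 such pairs r ran from -0.201 to 0.233, and 4 were over 0.1. With the replicate number as a block, 816 genes were called in Cpt1DKO against Control, 5 in TKO against Cpt2KO and 334 for the interaction, and the block changed no call on the 10 genes.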
